A study of Mus musculus with 6 samples.

Results

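Dup-L is a duplication at the Sox9/Kcnj locus of the mouse that takes in the boundary between the Kcnj and the Sox9 domains. Its contact map is described here against that of wild type (WT), as 2 of the 6 capture Hi-C libraries of the study, 1 library for each genotype. The Dup-L library came from limb buds at E12.5 labelled with the genotype Dup-L, and the WT library from limb buds of the same stage without an engineered allele. The library labelled deltaBor, which lacks the boundary, and the library labelled Dup-S, which duplicates a piece of the Sox9 domain without the boundary, were used in a few places as further limb bud libraries of that age. The sources used here give neither the zygosity of the mutants nor the number of embryos pooled. The duplicated segment was taken as 110960001 to 112520000 on chromosome 11 (mm9), 1560 kb or 156 bins of 10 kb. It had been placed from the gain of contacts in these same maps, so the gain of the segment's bins is a description and not a finding.

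In capture Hi-C, chromatin is crosslinked, cut and religated, so that pieces of DNA lying near each other in the nucleus are joined. Probes then enrich the joined fragments of 1 chosen region, and each joined pair that is sequenced adds 1 contact to the bins it came from. Mammalian chromosomes are folded into topologically associating domains (TADs), stretches that contact themselves more than their neighbours, and the boundaries between them are commonly bound by the insulator protein CTCF. A tandem duplication inside 1 domain adds sequence to it, whereas a tandem duplication across a boundary places the end of the segment from one domain beside the beginning from the other, with a boundary copy on either side. In the mouse gene order the protein-coding genes are Map2k6 (a stress kinase), Kcnj16 and Kcnj2 (potassium channel subunits), Gm11677 and Sox9, the transcription factor of cartilage and testis development. The published duplication Dup-L holds neither Kcnj2 nor Sox9. Gene positions on mm9 were not used here.

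The map held 587 bins, from 109010001 to 114880000. Totals were 8244295 contacts in Dup-L, 6337918 in deltaBor, 5280553 in Dup-S and 7051882 in WT. The boundary bin, 111380001 to 111390000, splits the segment into P, the 420 kb on its centromeric (Kcnj) side, and Q, the 1130 kb on its telomeric (Sox9) side. The unduplicated chromatin of the map is the centromeric flank of 1950 kb and the telomeric flank of 2360 kb. A fold is the count in Dup-L over the count in WT after Dup-L was multiplied by 1.06, the factor that equalises contacts whose bins both lie in the same flank, and a scaled count is a Dup-L count times that factor. Contacts of bins under 20 kb apart were left out, except in the totals and where stated. Ranges in brackets are 95% counting intervals unless they are said to run over bins or blocks: exact binomial (Clopper-Pearson) for folds and for shares of the contacts of P or Q, and from Poisson errors for the crossing levels, ratios of folds and gained contacts. They cover counting error only and would be too narrow if amplified copies of read pairs remained in the counts. With 1 library a genotype there is no replicate error and no test, and a difference between genotypes cannot be told apart from a difference between libraries.

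The edges of the gain were sharp at bin resolution. The last bin before the segment had 15237 contacts in Dup-L and 14791 in WT, a fold of 1.09. The first bin of the segment had 26036 contacts in Dup-L and 13497 in WT, a fold of 2.05. At the telomeric end, the second to last bin had 45111 contacts in Dup-L and 26079 in WT, a fold of 1.84, while the last bin had 29002 and 21262, a fold of 1.45. The first bin after the segment had 11112 contacts in Dup-L and 13203 in WT, a fold of 0.894. The last bin therefore stood between the duplicated and the unduplicated level. That first bin after the segment was also low within the bin itself, with 414 same-bin contacts in Dup-L against 696 in WT, a fold of 0.632. In the other libraries its contact sum was 0.973 (deltaBor) and 0.957 (Dup-S) of WT.

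Over the whole segment P stood slightly above Q. The median fold of contact sums was 1.97 over the 42 bins of P (lowest 1.796 and highest 2.05) and 1.82 over the 113 bins of Q (lowest 1.27 and highest 1.99), against medians of 1.03 in the centromeric flank and 1.04 in the telomeric flank. All 42 bins of P and 110 of 113 bins of Q were at or above 1.5, a level reached by 26.1% of all 587 bins and by none of either flank. Besides the last bin of the segment, the exceptions in Q were 111600001 to 111610000, at 1.40, and 112380001 to 112390000, at 1.27, single bins named after their values were seen. Their same-bin folds were 1.07 and 0.875, and their contact sums had folds of 1.03 and 1.00 in deltaBor and 0.935 and 0.919 in Dup-S. Contacts within single bins had lower median folds of 1.74 in P and 1.68 in Q, against 0.965 and 0.961 in the flanks. In the telomeric flank, 4 bins near the end of the map were below 0.8, led by 114830001 to 114840000 with 420 contacts in Dup-L and 2194 in WT, a fold of 0.203. That bin was also below WT in deltaBor (0.820) and Dup-S (0.697).

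**Figure D1:**
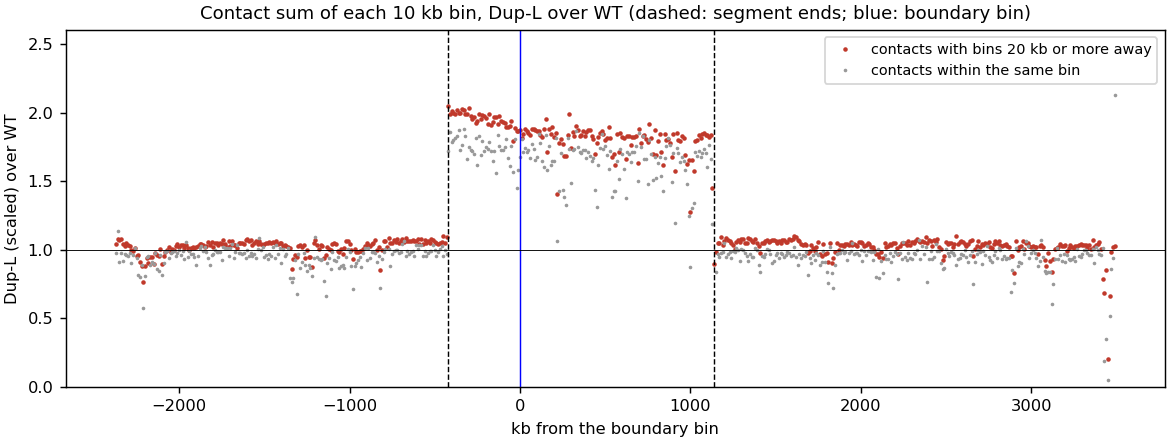
Fold of the contact sum of each 10 kb bin in Dup-L over WT (red, bins 20 kb or more apart) and of contacts inside the same bin (grey), against the distance in kb from the boundary bin. The segment between the dashed lines lies near 1.97 in P and 1.82 in Q, the flanks lie near 1, and a few bins at the telomeric end of the map fall well below 1.

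The largest difference between the maps lay where P meets Q, the pairs that cross the boundary inside the segment. P and Q shared 365344 contacts in Dup-L and 82664 in WT, or 81.8 scaled contacts per pair of bins in Dup-L against 17.4 in WT. That is a fold of 4.70 (4.66 to 4.73), and 100% of the 4746 bin pairs were higher in Dup-L than in WT. The fold of P with itself was 1.96 (1.95 to 1.98), from 235101 contacts in Dup-L and 127246 in WT. Q with itself had 1463568 contacts in Dup-L and 826337 in WT, a fold of 1.88 (1.88 to 1.89). KR-normalised values, in which every bin has the same contact sum, gave 2.21 for P with Q, but 0.884 for P with itself and 0.956 for Q with itself. In the authors' deposited table of Dup-L minus WT, values were above 0 in 100% of the bin pairs of P with Q and of P with itself and in 99.9% of those of Q with itself. That table was on the files' values Dup-L times 0.199 minus WT times 0.192. Its signs thus restate these same maps and are not separate evidence.

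The partners of P were redistributed, in a measure that needs no scaling. In Dup-L, 37.5% (37.4 to 37.6) of the contacts of P were with Q, against 15.6% (15.5 to 15.7) in WT. Contacts with the centromeric flank, the rest of P's own side, made up 30.02% (29.9 to 30.1) in Dup-L and 48.0% (47.9 to 48.2) in WT. The share within P was 24.2% in Dup-L and 24.0% in WT, and that with the telomeric flank 8.29% in Dup-L and 12.4% in WT. Q thus replaced the centromeric flank as the leading partner of P. In Dup-S, P gave 16.2% of its contacts to Q and 48.3% to the centromeric flank, and in deltaBor 23.5% and 39.97%.

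Seen from the larger piece, the share of the other piece moved by fewer percentage points. The same contacts were set there against a larger total, in Dup-L 2756420 contacts of Q against 973278 of P. P took 13.3% (13.2 to 13.3) of the contacts of Q in Dup-L and 4.91% (4.88 to 4.94) in WT. The telomeric flank took 24.7% in Dup-L and 34.8% in WT, the centromeric flank 8.96% and 11.3%, and Q itself 53.1% and 49.1%. Because the segment itself was duplicated, a larger share for duplicated partners is in part a matter of their copy number.

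**Figure D2:**
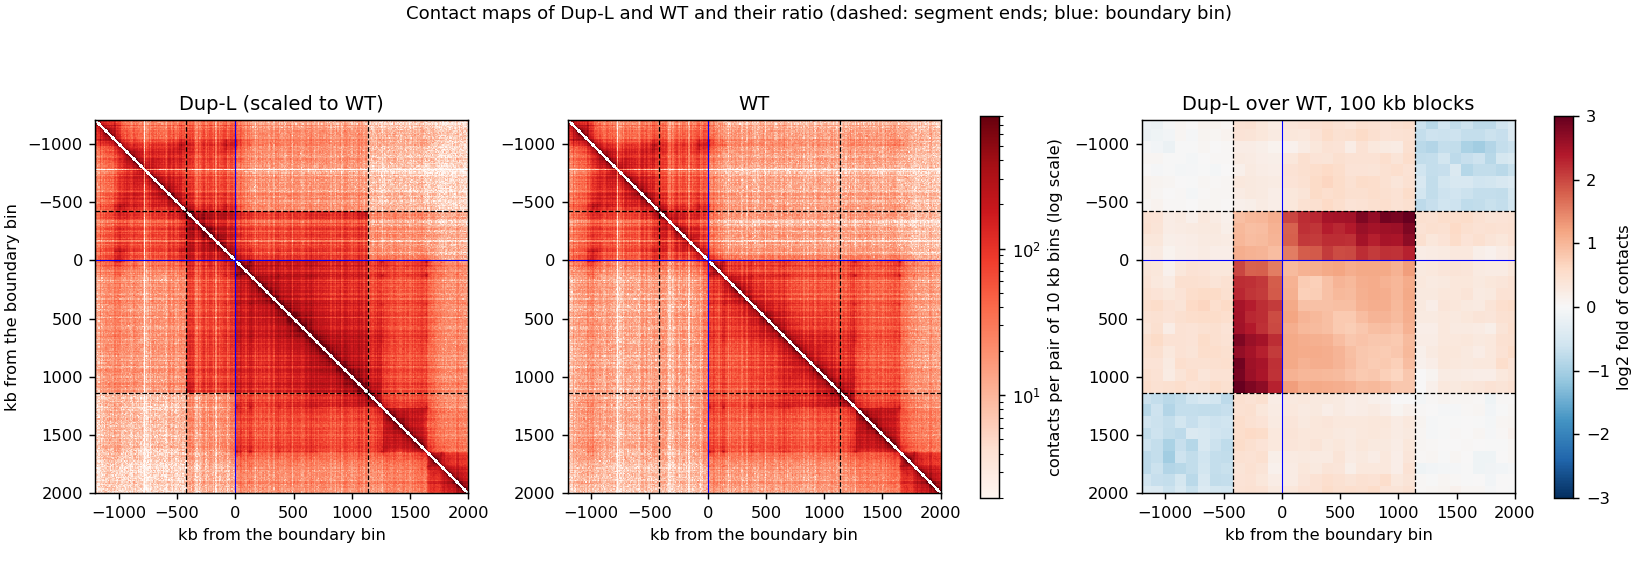
Contacts per pair of 10 kb bins in Dup-L (left, scaled) and WT (middle), on a log colour scale, and the log2 fold of Dup-L over WT in blocks of about 100 kb (right), with both axes in kb from the boundary bin. Dashed lines mark the ends of the segment and the blue line the boundary bin; the block of P with Q, at 2.91- to 10.9-fold, is bounded by the dashed and blue lines, and 424 of the 437 blocks that join the 2 flanks are below 1.

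Blocks of about 100 kb by 100 kb, cut so that none crosses an end of the segment or the boundary bin, show how the gain was spread. Of 1653 blocks with at least 50 contacts in both libraries, 233 (14.1%) were at or above 1.5-fold and 43 (2.6%) at or above 3-fold. All 44 blocks of P with Q passed the lower level and 43 of them the higher one, which no block of another class reached. Their median was 4.80, against 1.09 over all blocks. All 10 blocks within P, with folds between 1.85 and 2.12, and all 66 within Q, between 1.56 and 2.37, were at or above 1.5. Since P and Q were duplicated, a fold near the bins' own gain is already contained in the choice of the segment.

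Within the block of P with Q the fold followed a gradient from the boundary to the opposite corner. The lowest block joined the stretches on either side of the boundary, 111260001 to 111380000 with 111390001 to 111520000, with 22234 contacts in Dup-L and 8106 in WT, a fold of 2.91 (2.84 to 2.99). The highest joined the 2 outer ends of the segment, 110960001 to 111060000 with 112420001 to 112520000, with 12373 contacts in Dup-L and 1211 in WT, a fold of 10.9 (10.2 to 11.5). These stretches start 1460 kb apart in WT and would be neighbours where one copy of a head-to-tail repeat ends and the next begins. The next 4 blocks of the whole map, at 7.002 to 7.39, shared 1 or the other of these end stretches, and each had at least 7730 contacts in Dup-L and at most 1416 in WT.

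The gradient was not smooth along Q. Contacts of all of P with successive stretches of Q ran from a fold of 3.30 (3.25 to 3.36) at 111390001 to 111520000 to 6.93 (6.74 to 7.13) at 112420001 to 112520000. The stretch 112020001 to 112120000, past the middle of Q, was a local high with 34751 contacts in Dup-L and 6609 in WT, a fold of 5.59 (5.44 to 5.74). Its neighbours had folds of 4.69 (4.57 to 4.82) and 5.14 (5.01 to 5.28), whose intervals do not overlap with it, and the stretches beyond had 5.64 and 5.60 before the last one. In Dup-S, where this stretch is itself duplicated, its blocks with P had folds of 1.43 to 1.55. In deltaBor, where it is not, they had 1.41 to 1.65. In both libraries the stretch stood above both neighbours with every stretch of P. With 110960001 to 111060000 its fold in deltaBor was 1.597, against 1.543 and 1.427 for the neighbours. The same blocks in Dup-L had 7.02, against 5.77 and 6.22. The stretch thus stood above its neighbours in deltaBor and Dup-S too, in deltaBor by small margins over 1 neighbour and without intervals. All these folds share the same WT counts, and in Dup-S the stretch differs in copy number. The cause of the local high was not tested. Seen from P, the fold with all of Q was 5.95 (5.86 to 6.05) at 110960001 to 111060000 and 3.88 (3.83 to 3.93) at 111260001 to 111380000.

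The gain dropped at the ends of the segment but did not stop there. Those ends had been placed from the gain in these same maps, so the steps are a description. P with the last 100 kb of Q had 37280 contacts in Dup-L and 5715 in WT, while P with the first 100 kb of the telomeric flank had 7415 in Dup-L and 6041 in WT. The fold thus was 6.93 (6.74 to 7.13) on the inner side of that end and 1.304 (1.26 to 1.35) on the outer side. Q with the first 100 kb of P had 94979 contacts in Dup-L and 16949 in WT, a fold of 5.95 (5.86 to 6.05). Q with the 100 kb of the centromeric flank just outside had 23152 in Dup-L and 18032 in WT, a fold of 1.36 (1.34 to 1.39).

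Single bins showed the same steps. The first bin of the segment had 8909 contacts with Q in Dup-L and 1388 in WT, a fold of 6.82 (6.44 to 7.22), against 1.93 (1.86 to 2.00) with P and 1.18 (1.14 to 1.22) with the centromeric flank. The second to last bin of the segment, used because the last bin stood at an intermediate level, had 5127 contacts with P in Dup-L and 683 in WT, a fold of 7.98 (7.36 to 8.65). Its fold with Q was 2.05 (2.01 to 2.09) and with the telomeric flank 1.14 (1.11 to 1.18). The last bin itself had a fold of 5.15 (4.68 to 5.67) with P. Beside the boundary the folds across it were lower, at 3.02 (2.93 to 3.12) for the last bin of P with Q and 2.70 (2.58 to 2.83) for the first bin of Q with P.

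**Figure D3:**
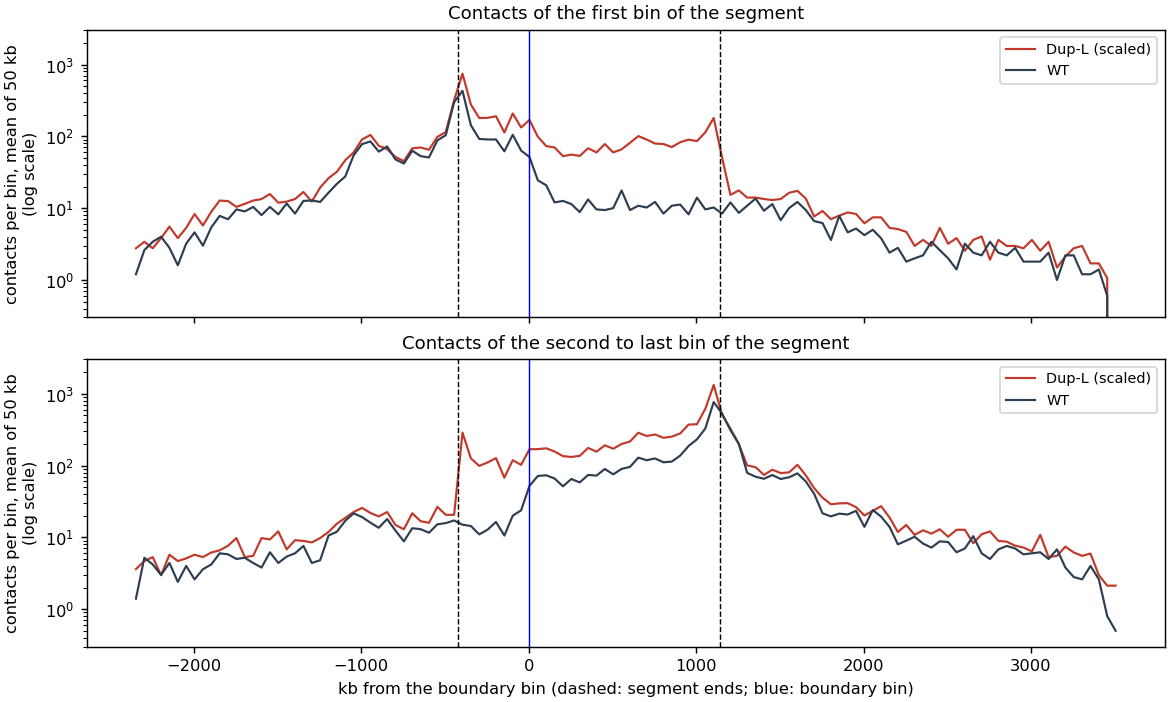
Contacts of the first bin (top) and of the second to last bin (bottom) of the segment with all other bins, as means over 50 kb on a log scale, in Dup-L (red, scaled) and WT (dark), against the distance in kb from the boundary bin. From both ends the Dup-L line stands far above the WT line on the other side of the boundary, and it comes back near the WT line at the dashed line that ends the segment.

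The folds of P with Q were higher the farther apart the bins lie on the WT chromosome. At 20 to 90 kb there were 7734 contacts in Dup-L and 3426 in WT, a fold of 2.40 (2.30 to 2.50). It was 4.31 (4.20 to 4.43) at 500 to 590 kb, 5.53 (5.38 to 5.69) at 1000 to 1090 kb and 9.08 (8.59 to 9.60) at 1400 to 1490 kb. The bins 1500 kb or more apart had 3635 contacts in Dup-L and 264 in WT, a fold of 14.6 (12.9 to 16.6). The level itself changed little over most of this range: P and Q had 71.1 scaled contacts per bin pair in Dup-L at 500 to 590 kb and 80.7 at 1000 to 1090 kb, while WT had 16.5 and 14.6. Inside Q the fold was 1.76 (1.76 to 1.77) at 20 to 200 kb and 2.24 (2.202 to 2.28) at 900 to 1120 kb. Inside P it was 1.93 (1.92 to 1.95) at 20 to 200 kb and 2.11 (2.08 to 2.15) at 210 to 410 kb.

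Set against the path through a head-to-tail junction, the contacts gained by P with Q decayed with separation. The gained contacts were taken as the scaled Dup-L count minus 1.796 times the WT count, where 1.796 is the fold of pairs 20 to 200 kb apart inside P and inside Q. Per bin pair they numbered 133 at 10 to 100 kb from each other through the junction, 73.7 at 110 to 200 kb, 63.5 at 210 to 300 kb and 50.5 at 610 to 700 kb. WT pairs inside the WT domains on either side of the boundary, 110200001 to 111380000 and 111390001 to 112650000, had 271, 127, 98.0 and 62.9 contacts at these separations. The WT level at 10 to 100 kb, and the one up to 300 kb used below, include adjacent bins. The gained contacts were thus 0.490 (0.476 to 0.504) of the WT domain level nearest the junction and 0.803 (0.785 to 0.822) of it at 610 to 700 kb. The ratio was 0.808 (0.789 to 0.828) at 710 to 800 kb and 0.651 (0.633 to 0.670) at 910 to 1000 kb. It was 0.742 (0.720 to 0.764) at 1010 to 1100 kb and 0.578 (0.558 to 0.598) at 1110 to 1200 kb, so it did not go on rising with separation. At the last 2 of these, the gained contacts were 43.1 and 42.9 per bin pair. The WT domain level was 58.0 and 74.2, the latter from only 133 WT pairs. Up to 300 kb the ratio was 0.586 (0.578 to 0.595), from 42654 contacts in Dup-L and 5794 in WT before subtraction. Without the first and last bin of the segment, a choice made after seeing the data, it was 0.645.

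Beyond that the level declined slowly and then turned up. The gained contacts were lowest at 38.9 per bin pair at 1210 to 1300 kb through the junction, and 46.6, 56.3 and 64.3 at 1310 to 1400, 1410 to 1500 and 1510 to 1540 kb. The bins of these last pairs are 20 to 50 kb apart on the WT chromosome, on either side of the boundary, and would form the far corner of a domain that runs from one boundary copy to the next. The upturn depends on what is subtracted: with 2 times the WT count the values were 34.4, 40.8, 45.0 and 35.3. Which part of these pairs is a contact through the junction and which a direct one cannot be told apart in counts of this kind.

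**Figure D4:**
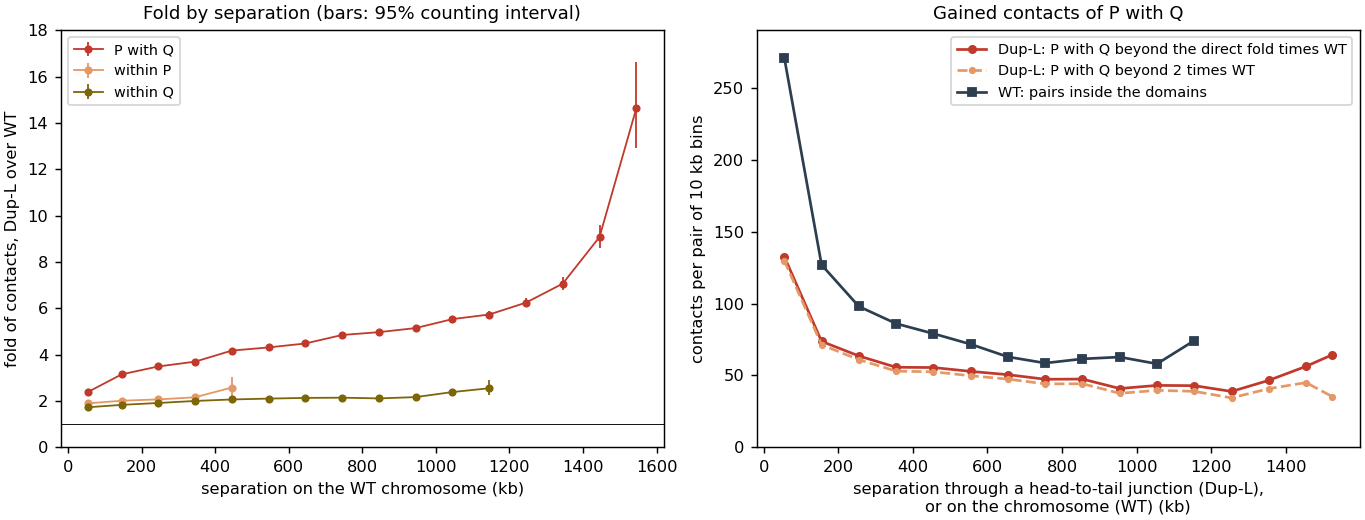
Left: fold of contacts, Dup-L over WT, by separation on the WT chromosome for P with Q, within P and within Q, with 95% counting intervals. Right: contacts per pair of 10 kb bins gained by P with Q in Dup-L, by separation through a head-to-tail junction, after subtracting 1.796 times (solid) or 2 times (dashed) the WT count, beside WT pairs inside the WT domains (squares); the gained contacts start at 133 and stay below the WT domain level at each separation shown for both.

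Close to the boundary, where the path through the junction is over 1300 kb, contacts across it were still below those beside it. At 20 to 200 kb, bin pairs that cross the boundary bin had 47.8% (47.2 to 48.4) of the contacts of pairs inside P and Q at the same separations in Dup-L, against 30.6% (29.9 to 31.2) in WT. The fold across the boundary was 1.57 (1.53 to 1.61) times the fold inside the pieces, from 25124 crossing contacts in Dup-L and 9262 in WT. When the 2 nearest bins on either side were left out as well, which also takes out the bins lost in deltaBor, the crossing level was 46.6% (45.8 to 47.4) in Dup-L, 77.3% (75.8 to 78.8) in deltaBor and 27.8% (27.0 to 28.6) in WT. In this measure Dup-L thus lay between WT and the library without a boundary. In deltaBor the boundary bin had a fold of 0.206 and the first bin of Q a fold of 0. With that DNA lost, its crossing pairs lie nearer each other than the separations used here. At 1410 to 1500 kb through the junction, 56.3 of 156 scaled contacts per bin pair in Dup-L were beyond 1.796 times WT, against 55.7 at 310 to 400 kb. Beyond 2 times WT these values were 45.0 and 53.0, so their match depends on what is subtracted. How much of the crossing level in Dup-L came through the junction was not tested. The ratio of the folds was smaller at short separations. The fold of crossing pairs was 2.17 (2.01 to 2.34) at 20 to 40 kb, where it was 1.87 inside P and 1.72 inside Q, and 3.41 (3.27 to 3.55) at 150 to 200 kb, where it was 2.02 and 1.85.

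Contacts of the segment with the unduplicated flanks were moderately higher in Dup-L. With the centromeric flank the segment had 547656 contacts in Dup-L and 452156 in WT, a fold of 1.29 (1.28 to 1.29). With the telomeric flank it had 765017 in Dup-L and 655070 in WT, a fold of 1.24 (1.24 to 1.24). In Dup-S, in which only a piece of Q is duplicated, these folds were 1.16 and 1.14, and in deltaBor 1.12 and 0.988. Across the boundary, deltaBor was close to Dup-L. Q with the centromeric flank had 1.38 in Dup-L and 1.40 in deltaBor, and P with the telomeric flank 1.31 and 1.28. On the same side of the boundary it was lower. P with the centromeric flank had 1.22 in Dup-L and 0.944 in deltaBor, and Q with the telomeric flank 1.23 and 0.961. In KR-normalised values the fold of the segment was 0.895 with the centromeric flank and 0.899 with the telomeric flank. Scaled to the library total, the fold with the telomeric flank was 0.999.

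The folds with the flanks varied with the distance from the segment. The last 100 kb of the segment with the first 100 kb of the telomeric flank had 23558 contacts in Dup-L and 24815 in WT, a fold of 1.01 (0.991 to 1.03), the lowest block of Q with that flank. Over all of Q the fold was 1.11 (1.10 to 1.12) with the first 100 kb of the telomeric flank and 1.45 (1.43 to 1.47) with the part from 1500 to 2360 kb away. P had a fold of 1.14 (1.12 to 1.15) with the nearest 100 kb of the centromeric flank and 1.47 (1.444 to 1.496) with the part from 1000 to 1500 kb away. Q and the centromeric flank had 1.36 (1.34 to 1.39) with the nearest 100 kb, a lower 1.29 (1.28 to 1.31) at 500 to 750 kb and 1.53 (1.504 to 1.55) at 1000 to 1500 kb. P and the telomeric flank had 1.304 (1.26 to 1.35) near and 1.32 (1.28 to 1.35) far. Of the blocks that join the segment to a flank, 113 of 630 were at or above 1.5, against 14.1% of all blocks, and none at or below 1/1.5. Of the same 630 blocks, 51 were at or above 1.5 in deltaBor and 51 in Dup-S, spread differently over the classes. With P, the centromeric flank had 13 such blocks of 76 in Dup-L, 0 in deltaBor and 0 in Dup-S. With Q, it had 62 of 209 in Dup-L, 40 in deltaBor and 31 in Dup-S. The telomeric flank had 2 of 92 with P in Dup-L, 11 in deltaBor and 0 in Dup-S. With Q, it had 36 of 253 in Dup-L, 0 in deltaBor and 20 in Dup-S. Of the 630 blocks, 9 in deltaBor and 0 in Dup-S were at or below 1/1.5.

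The 2 flanks contacted each other less in Dup-L. They shared 135741 contacts in Dup-L and 198665 in WT, or 3.13 scaled contacts per bin pair in Dup-L against 4.32 in WT, a fold of 0.726 (0.721 to 0.731). Both libraries without this duplication had more than WT, at 1.07 (1.06 to 1.08) in Dup-S and 1.17 (1.16 to 1.18) in deltaBor. Over all blocks, 78 (4.72%) were at or below 1/1.5 in Dup-L, and all 78 joined flank to flank, out of 437 such blocks. Their median was 0.786, and 424 of 437 were below 1. Under the same rule deltaBor had 10 blocks (0.605%), none of them flank to flank, and Dup-S had 0.

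The lowest values mostly involved 1 stretch of the centromeric flank. Of the 5 lowest blocks, 4 had 110360001 to 110460000 as their centromeric partner, led by 113020001 to 113120000 with 724 contacts in Dup-L and 1585 in WT, a fold of 0.485 (0.444 to 0.530). The same block had a fold of 1.05 in Dup-S and 1.34 in deltaBor. The remaining one joined 110560001 to 110660000 to 113520001 to 113620000, with 164 contacts in Dup-L and 326 in WT, a fold of 0.535 (0.440 to 0.647). The highest block of this class, at 1.16, had an interval from 0.974 to 1.37. The stretch 110360001 to 110460000 was also in the lowest block of the centromeric flank with P, at 1.07, and with Q, at 1.10. Its low standing was thus not particular to pairs of the flanks.

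The loss was about level up to 2750 kb and was smaller farther out. At 1560 to 1950 kb on the WT chromosome the flanks had 6061 contacts in Dup-L and 9982 in WT, a fold of 0.645 (0.625 to 0.666). It was 0.628 (0.616 to 0.640) at 1960 to 2350 kb, 0.630 (0.619 to 0.641) at 2360 to 2750 kb and 0.803 (0.787 to 0.819) at 3560 to 3950 kb. At 5560 to 5860 kb it was 0.899 (0.8001 to 1.01), from 535 contacts in Dup-L and 632 in WT. Contacts were sparse there, at 1.15 scaled ones per bin pair in Dup-L and 1.27 in WT. A repeat of 1560 kb would set the flanks that much farther apart. In WT, flank pairs that much farther apart had 0.309 of the contacts at 1560 to 1950 kb and 0.589 at 3560 to 3950 kb. The folds in Dup-L were higher than these WT ratios at each of the 7 separations where both could be had.

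**Figure D5:**
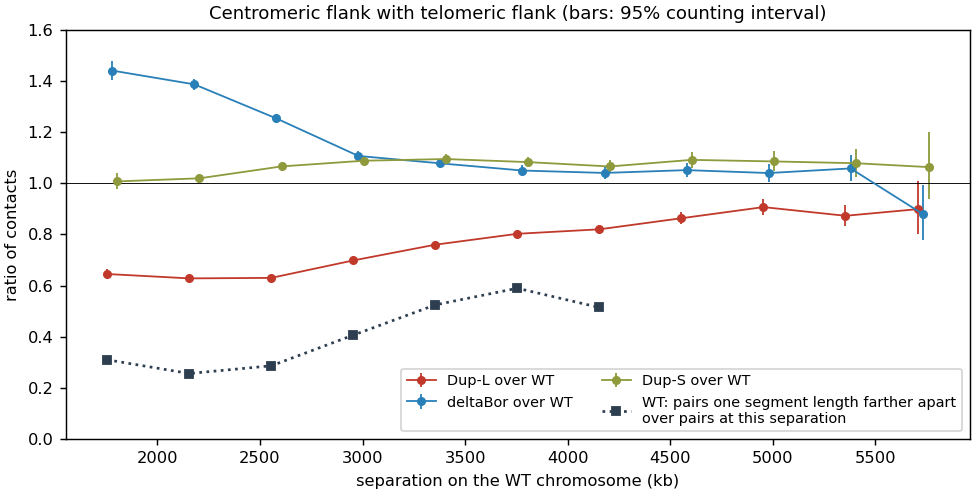
Contacts of the centromeric with the telomeric flank by separation on the WT chromosome, as the ratio of Dup-L (red), deltaBor (blue) and Dup-S (green) to WT with 95% counting intervals, and the WT ratio between pairs 1 segment length farther apart and pairs at the separation shown (squares). Dup-L lies between 0.628 and 0.907, below deltaBor and Dup-S at each separation up to 5550 kb and above the WT ratio.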

How the data were processed

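Per the submitters' processing notes, the aligner was Bowtie2 2.2.6 and the build mm9. The authors deposited raw contact counts per pair of 10 kb bins, marked with a mapping quality of 30 per the file names, and a KR-normalised (matrix-balanced) signal of the same libraries. The authors also deposited a difference map of Dup-L and WT, a score. The sources used here give neither its scaling rule, nor the filters on pairs, nor any removal of duplicates. The Dup-S map gives positions as offsets from its first bin.

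From the counts, regions, blocks and bins were summed in Python 3.11.15 with numpy 2.4.6, scipy 1.17.1 and pandas 2.3.3. Intervals are exact conditional binomial ones for folds and from Poisson errors for ratios of folds and for the gained contacts. Error of the scaling factor is not included. WT domains end at minima of a 500 kb insulation diamond with a prominence of at least 0.3 log2. The sums were tested on simulated data. Named blocks are the 5 highest, the 5 lowest and the extremes of each class. The segment, regions and rules were chosen with earlier results of these data known. Alternatives were KR values, other scalings, block sizes, count minimums, separations and left-out bins. No genome of the build was used, so no sequence is shown.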

Additional observations from a re-analysis of the deposited data

How the results depend on the processing

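With 1 library a genotype, the limits are counting depth and the choice of scale. No paired analysis was possible because each genotype has 1 library and no test was run. Of 71 recomputed values, 31 stayed within the reported interval (for counts of blocks, within 1.5 times), 35 moved and 5 crossed 1. The cause was not tested, except that the scalings multiply every fold by 1 factor. Scaling to the library total lowers all folds by the same amount (log2 shift of -0.31).

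KR-normalised values gave folds of 2.21 for P with Q, 0.884 for P with itself, 0.956 for Q with itself, 0.895 and 0.899 for the segment with the centromeric and the telomeric flank, and 0.753 between the flanks. The short-range ratio was 1.47, the gained contacts up to 300 kb were 0.281 of the WT domain level, and 43 blocks were gained. Scaled to the library total, these folds were 3.78, 1.58, 1.51, 1.04, 0.999 and 0.584, the gained contacts 0.472, and 95 blocks were gained and 277 lost. Scaled on the centromeric flank alone, Q with itself was 1.89 and the segment 1.29 and 1.25 with the centromeric and the telomeric flank. Scaled on the telomeric flank alone, they were 1.87, 1.28 and 1.24. Leaving out pairs under 10 bins apart gave 4.74 for P with Q, 2.03 for P, 1.96 for Q, 1.28 and 1.23 for the segment with the flanks and 0.718 between the flanks. Without the first and last bin of the segment, added after seeing the data, P with Q was 4.66 and the gained contacts 0.645. Blocks of 200 kb, of which there are fewer, gave 45 gained and 17 lost. The short-range ratio was 1.38 for pairs 2 to 10 bins apart, 1.66 for 2 to 30 bins and 1.68 with 2 more bins left out on each side. The gained contacts were 0.567 with 2 times WT subtracted, 0.664 with 1 times WT and 0.490 up to 100 kb.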
